A study of Homo sapiens with 6 samples.

Results

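The genes described here encode the translation initiation factors of human cells and the kinases that act on one of them. They are the rows of the deposited count table whose symbol begins with EIF and a digit. Of 57 such rows, 2 were left out, the pseudogene EIF3IP1 and the antisense transcript EIF1B-AS1, so that 55 genes of the 23710 rows remained. RNA had been sequenced from cultures of THP-1, an established human monocytic leukaemia line, kept for 6 h with 10 uM mebendazole or with DMSO, the solvent of the drug. Mebendazole is a benzimidazole that binds tubulin. Each group held 3 libraries, joined by the labels into 3 pairs of 1 mebendazole and 1 DMSO library. No label tells whether the pairs are separate cultures, so p-values cover only the spread seen among these 6 libraries, and that spread may be technical.

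Initiation brings a ribosome to the start codon of an mRNA. The factor eIF2 carries the initiator tRNA and eIF2B recharges it with GTP. When a kinase phosphorylates the alpha subunit of eIF2, eIF2B is blocked and general initiation falls. The cap-binding protein eIF4E, the scaffold eIF4G and the helicase eIF4A load the mRNA, and 4E-binding proteins, which mTORC1 controls, hold eIF4E back. The large complex eIF3 and the small factors eIF1, eIF1A and eIF5 organise scanning and the choice of start codon, and eIF5B and eIF6 act in the joining of the ribosomal subunits. None of these steps was measured here: the values are RNA levels.

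Library totals ranged from 13420558 to 15727667 counts. Levels are CPM, read counts set to a common library size with TMM scaling. Each is a level relative to other RNA in its library, and fewer cells and less RNA per cell cannot be told apart. A gene was called at an adjusted p under 0.05 in edgeR's quasi-likelihood test over all 13591 genes tested. All 8 monocyte markers examined had a mean above 10 CPM over the 6 libraries, and their summed level was 1732 to 1778 CPM in mebendazole libraries and 1755 to 1854 CPM in DMSO libraries. By gene, 6 of the 8 were called lower and 2 higher. CD33 (-1.76), FCGR1A (-1.08), CD14 (-1.06), LYZ (-0.70), ITGAM (-0.63) and CSF1R (-0.42) were the lower ones on the log2 scale. SPI1 was higher, at 638.5 ± 8.33 CPM with mebendazole and 323 ± 13.6 CPM with DMSO (SD, n = 3 each), as was CD68 at 0.10 (-0.14 with library totals). The part of these markers in the results was not tested. Markers of other cell types summed to at most 2.92 CPM per list in mebendazole libraries and 2.03 CPM in DMSO libraries. The 4 T cell genes summed to 0 to 0.0767 CPM with mebendazole and 0.118 to 0.329 CPM with DMSO. For 4 B cell genes the sums were 1.26 to 1.98 CPM with mebendazole and 1.25 to 1.49 CPM with DMSO, and for 4 epithelial genes 1.53 to 2.05 CPM with mebendazole and 1.12 to 1.83 CPM with DMSO. The erythroid list summed to 0.157 to 0.307 CPM with mebendazole and 0 to 0.0588 CPM with DMSO, with HBA1 at 0 reads. The endothelial and stromal list summed to 2.05 to 2.92 CPM with mebendazole and 1.47 to 2.03 CPM with DMSO, with COL1A2 at 0 reads.

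The initiation factor genes did not move as one block. Of 55 members, 51 passed the filter on low counts, and of these 13 were called higher and 28 lower with mebendazole. Together 41 of 51 were called, or 80.4%, against a background of 82.3% of all genes tested, so the number of calls is close to that of any other genes. Higher calls made up 25.5% of the tested members against 40.6% of all genes, and lower calls 54.9% against 41.7%. Their median log2 fold change was -0.16, with -0.03 over all genes. Changes were mostly small: 5 members were called and at least 1.5-fold higher (9.80%, against 24.8% of all genes) and 7 at least 1.5-fold lower (13.7%, against 25.9%). The median size of the change, up or down, was 0.37 on the log2 scale for the tested members and 0.60 for all genes. In 43 of the 51 the 3 mebendazole values did not overlap the 3 DMSO values, as in 82.4% of all genes. The 5 that rose at least 1.5-fold were EIF2AK3, EIF1, EIF4G2, EIF5 and EIF4E, and the 7 that fell as far were EIF4EBP3, EIF2B3, EIF4EBP1, EIF2B1, EIF3M, EIF1AY and EIF2AK1. EIF1AY and EIF2AK1 lay just past that limit, at -0.59 each, whereas EIF5B (-0.52), EIF2AK4 (-0.51) and EIF4A2 (-0.50) lay just short of it, and EIF4E was the nearest above it among rises, at 0.64.

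**Figure D1:**
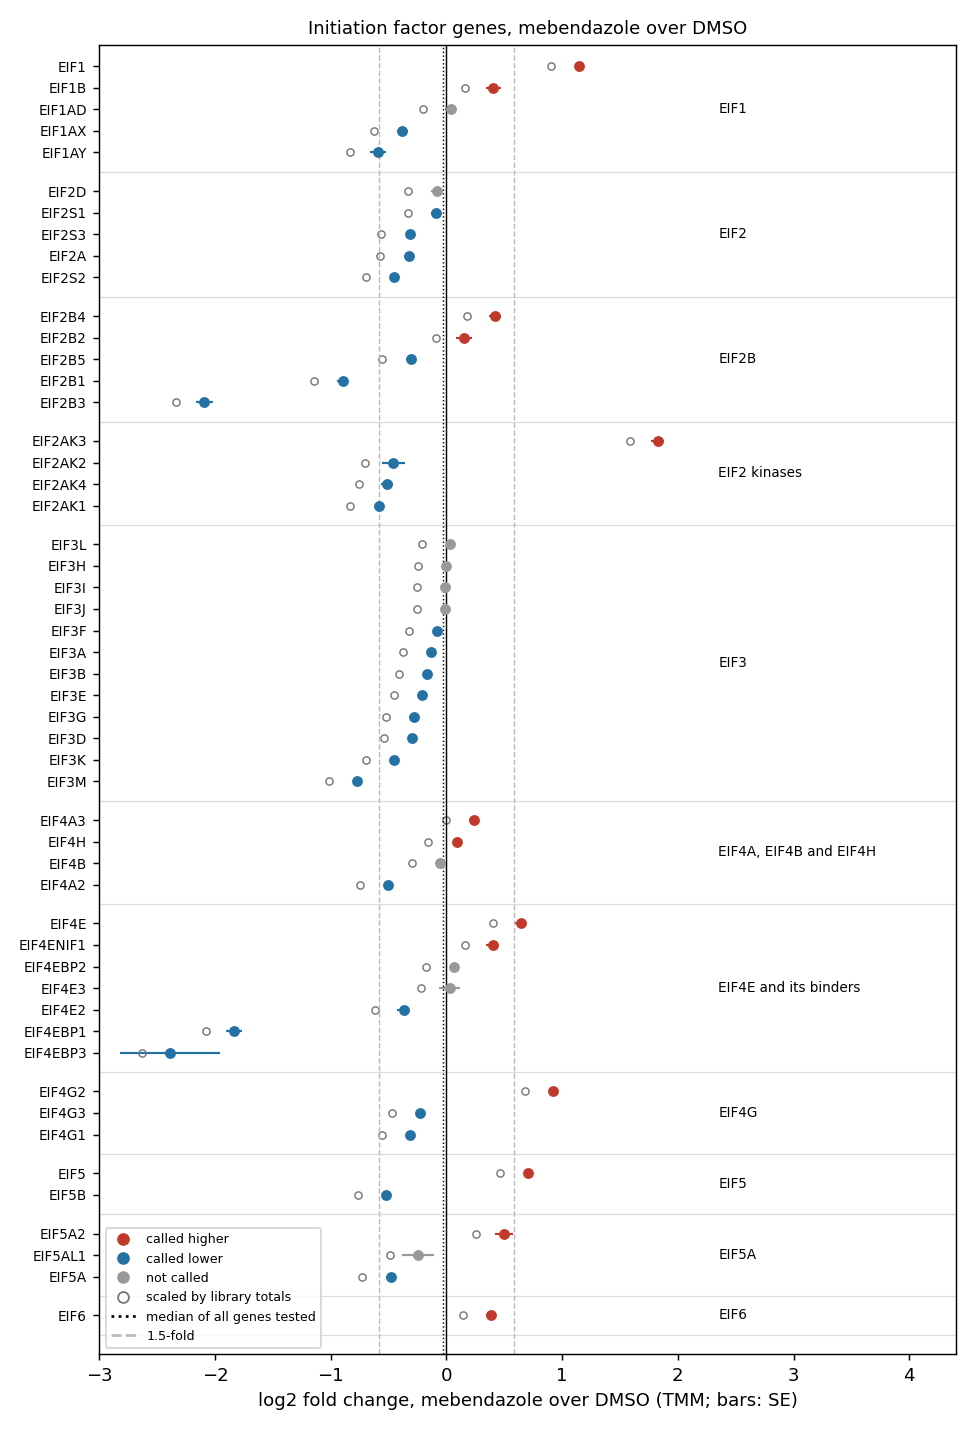
Log2 fold change of each of the 51 tested initiation factor genes, mebendazole over DMSO, grouped by factor; filled points are TMM-scaled values with bars of 1 SE, open points the values with library totals alone, and dashed lines mark 1.5-fold. Most points lie between the dashed lines, EIF2AK3 stands highest at 1.83 and EIF4EBP3 lowest at -2.39, and open points lie 0.24 to the left.

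The balance of rises and falls depended on how libraries were scaled. Library totals in place of TMM moved the median of all genes by -0.24, and 10 members were then called higher and 39 lower, so that 20.4% of the called members were higher against 31.7% with TMM (over all called genes, 36.4% against 49.3%). The sign changed for EIF1AD, EIF2B2, EIF3H, EIF3L, EIF4A3, EIF4E3, EIF4EBP2 and EIF4H, whose TMM values lay between 0.00 and 0.24. Comparisons between members are not touched by scaling, since both genes of a pair are read in the same library.

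To set the genes beside sequence that may differ between them, RefSeq promoters (GRCh38.p14, 250 bases before to 50 after the start) were searched on both strands for the E-box CACGTG, the site of MYC and related factors, and for TGATGNAAN, the shape of a C/EBP-ATF response element. Promoters were matched for 46 of the 55 members. None was matched for EIF2AK1, EIF2S2, EIF3A, EIF3CL, EIF3E, EIF3G, EIF3H, EIF3L or EIF4EBP1, so nothing is known here of their motifs. The E-box, which reads the same on both strands, was present in 12 of 46 (26.1%), against 10.1% of the 9902 tested genes with a promoter and 8.83% of all 14725 promoters of the table's symbols. Among members it was found in 5 of 13 called higher (38.5%), in 6 of 22 called lower (27.3%) and in 1 of 8 not called, and over all tested genes in 9.06% of those called higher and 11.2% of those called lower. Of the 5, EIF4A3 and EIF4H changed sign with library totals. TGATGNAAN was in 0 of the 46 windows and in 1.74% of those of tested genes. With a share that low over all genes, 0 of 46 does not set the members apart. The 2 motifs overlapped in no member's window, since none held TGATGNAAN. A match is only a run of letters, and the binding of a factor was not measured. The sequences are the 250 bases up to the start of EIF2B3, the member with the largest fall among those with more than 10 CPM in both groups, and of EIF4E and EIF4G1, partners in cap binding that moved in opposite directions and that held 2 E-boxes each. Capitals mark the E-box, which begins 179 bases before the start in EIF2B3, 225 and 72 bases before it in EIF4E, and 144 and 67 bases before it in EIF4G1.
EIF2B3, chr1:44986596-44986845, minus strand: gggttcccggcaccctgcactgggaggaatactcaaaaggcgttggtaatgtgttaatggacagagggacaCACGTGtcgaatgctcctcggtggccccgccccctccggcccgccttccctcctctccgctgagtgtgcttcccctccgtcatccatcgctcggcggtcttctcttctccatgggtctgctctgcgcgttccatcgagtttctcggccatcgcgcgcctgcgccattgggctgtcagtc
EIF4E, chr4:98929134-98929383, minus strand: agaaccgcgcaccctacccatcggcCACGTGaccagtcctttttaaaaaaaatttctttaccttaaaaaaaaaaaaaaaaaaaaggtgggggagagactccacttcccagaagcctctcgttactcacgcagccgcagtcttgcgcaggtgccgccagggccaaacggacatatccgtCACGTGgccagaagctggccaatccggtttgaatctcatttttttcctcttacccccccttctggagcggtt
EIF4G1, chr3:184314356-184314605, plus strand: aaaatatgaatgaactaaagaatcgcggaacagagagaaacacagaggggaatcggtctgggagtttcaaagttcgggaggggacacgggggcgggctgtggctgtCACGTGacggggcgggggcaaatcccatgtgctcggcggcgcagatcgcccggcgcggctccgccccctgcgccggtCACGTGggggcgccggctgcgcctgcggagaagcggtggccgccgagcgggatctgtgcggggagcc

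Among the 4 EIF2 kinases 1 rose, EIF2AK3, and 3 fell. EIF2AK3, the kinase PERK that responds to unfolded protein in the endoplasmic reticulum, was read at 89.9, 82.6 and 89.3 CPM in mebendazole libraries and at 23.8, 26.1 and 24.0 CPM in DMSO libraries. Every mebendazole value was more than 3 times every DMSO value. The log2 fold change was 1.83 (SE 0.06, adjusted p = 1.64e-39, higher in 3 of 3 pairs), a 3.55-fold rise. EIF2AK1, the haem-regulated kinase HRI, had 119, 115 and 115 CPM with mebendazole and 180, 174 and 169 CPM with DMSO. It fell by 0.59 on the log2 scale (SE 0.04, adjusted p = 8.11e-22) with no overlap of the groups. EIF2AK4, the kinase GCN2 that senses uncharged tRNA, had 48.1, 49.7 and 50.5 CPM with mebendazole and 70.1, 74.0 and 67.5 CPM with DMSO (log2 fold change -0.51, SE 0.05, adjusted p = 4.12e-14). EIF2AK2, the double-stranded RNA sensor PKR, had 11.1, 9.05 and 11.6 CPM with mebendazole and 14.0, 14.1 and 15.6 CPM with DMSO. It had the fewest reads of the 4 and also fell (-0.46, SE 0.10, adjusted p = 2.23e-05). EIF2AK3 supplied 33.5%, 32.2% and 33.6% of all EIF2 kinase reads in the mebendazole libraries and 8.25%, 9.06% and 8.68% in the DMSO libraries, a share without correction for length. The exact permutation test on that share gave p = 0.1, the smallest that 3 against 3 libraries can give. That share was chosen after the data were seen, so its p adds no support. Directions of all 4 kinases held with library totals.

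The subunits of eIF2 itself, the substrate of these kinases, were lower by modest amounts. EIF2S2, the beta subunit, had 139, 139 and 136 CPM with mebendazole and 183, 186 and 198 CPM with DMSO, a fall of 0.45 on the log2 scale (SE 0.04, adjusted p = 6.61e-17). EIF2S3, the gamma subunit that binds GTP, had 207, 222 and 204 CPM with mebendazole and 267, 261 and 260 CPM with DMSO (-0.32, SE 0.04, adjusted p = 1.74e-12). EIF2S1, which encodes the phosphorylated alpha subunit, had the smallest difference of the 3 subunits. It stood at 144, 142 and 138 CPM with mebendazole and at 149, 150 and 152 CPM with DMSO. The groups did not overlap, but the log2 fold change of -0.09 (SE 0.04, adjusted p = 0.0271) was not called by DESeq2 (adjusted p = 0.263), without pair 2 (adjusted p = 0.113) or without pair 3 (adjusted p = 0.264). EIF2A, a separate protein that can also bring initiator tRNA to the ribosome, fell by 0.33 on the log2 scale. EIF2D, which acts on ribosomes after termination and reinitiation, had a log2 fold change of -0.08 and was not called (adjusted p = 0.109), but was called lower with library totals (-0.33, adjusted p = 2.58e-08) and among genes with a mean of 10 CPM or more (-0.12, adjusted p = 0.0234). Over the 5 genes of the EIF2 group the count was thus 4 lower, 0 higher and 1 not called (median -0.32 on the log2 scale). Of all tested genes 41.7% were called lower and 40.6% higher.

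Among the 5 subunits of eIF2B, the exchange factor for eIF2, 3 fell and 2 were called higher. EIF2B3, the gamma subunit, was read at 13.6, 12.6 and 11.7 CPM in mebendazole libraries, against 51.0, 52.3 and 58.7 CPM in DMSO libraries. All mebendazole values were under 15 CPM and all DMSO values over 50. The log2 fold change was -2.09 (SE 0.07, adjusted p = 7.82e-37), 4.27-fold lower than with DMSO. EIF2B1, the alpha subunit of the regulatory core, had 53.5, 54.2 and 50.8 CPM with mebendazole and 91.6, 102 and 102 CPM with DMSO, and fell by 0.90 on the log2 scale (SE 0.05, adjusted p = 4.16e-26). EIF2B5, the catalytic epsilon subunit, had 82.8, 90.2 and 85.4 CPM with mebendazole and 106, 107 and 107 CPM with DMSO (-0.31, SE 0.04, adjusted p = 3.19e-09). EIF2B4, the delta subunit, went the other way, with 60.3, 56.9 and 57.2 CPM in mebendazole libraries and 42.5, 42.9 and 45.2 CPM in DMSO libraries (0.42, SE 0.05, adjusted p = 2.17e-10). EIF2B2, the beta subunit, had 25.5, 24.2 and 26.6 CPM with mebendazole and 22.2, 23.0 and 23.6 CPM with DMSO. Its rise of 0.15 (adjusted p = 0.0469) was -0.09 with library totals, and was not called by DESeq2 (adjusted p = 0.203) or without pair 1 (adjusted p = 0.169) or pair 3 (adjusted p = 0.165). EIF2B3 took 5.77%, 5.28% and 5.03% of the EIF2B reads in mebendazole libraries and 16.3%, 16.0% and 17.5% in DMSO libraries. That share does not depend on scaling (exact permutation p = 0.1, the smallest possible). It was chosen after the data were seen, so its p adds no support.

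**Figure D2:**
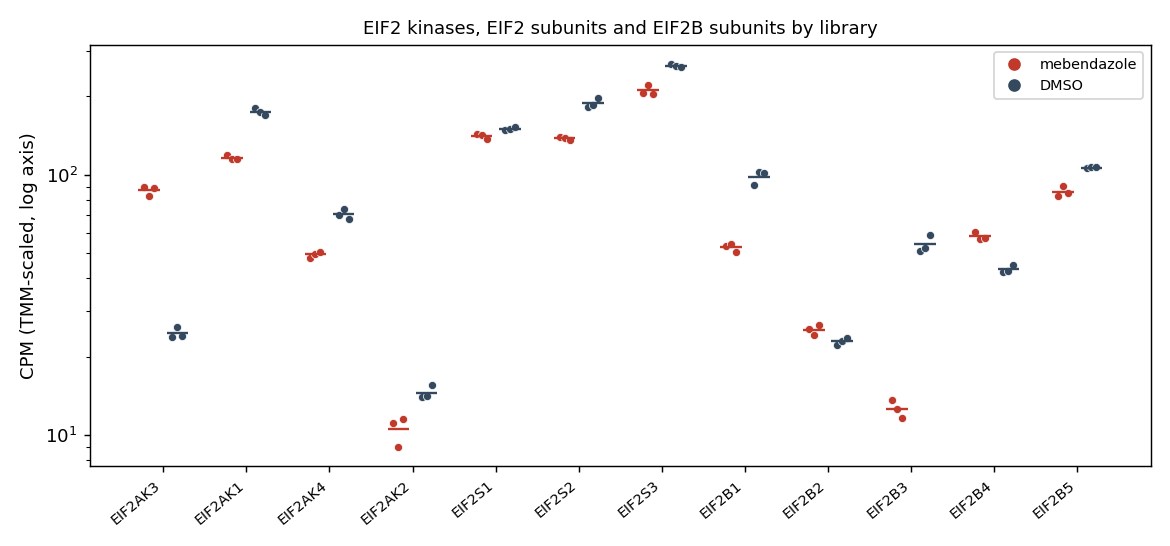
CPM on a log axis of the EIF2 kinases, the EIF2 subunits and the EIF2B subunits, 1 point per library and a bar at each mean, mebendazole left of DMSO. EIF2AK3 and EIF2B4, and by less EIF2B2, were higher with mebendazole in every library, EIF2B3 was lower by the widest gap, and EIF2S1 differed least among the EIF2 subunits.

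Exons of EIF2B1 overlap those of GTF2H3 and DDX55 in GENCODE release 29, and those of EIF2AK1 overlap AIMP2. These neighbours were lower with mebendazole too, with log2 fold changes of -1.04 for GTF2H3, -0.70 for DDX55 and -1.66 for AIMP2, and reads of shared exons cannot be told apart with a kit that does not mark strand. The neighbours of EIF2AK2 and EIF2S1 moved against them, with GPATCH11 at 1.04 and ATP6V1D at 0.54. In all, 18 of the 55 members share exon bases with another gene of the table, and the part of this overlap in the results was not tested.

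The eIF3 genes ranged from values near 0 to a fall of 0.77 on the log2 scale. Of 14 members 12 were tested, 8 were called lower, 0 higher and 4 were not called, with a median log2 fold change of -0.15. Lower calls made up 66.7% of the 12, against 41.7% of all genes. Calls in either direction were 66.7%, against 82.3% of all genes. EIF3M fell furthest, at 150, 144 and 154 CPM in mebendazole libraries and 243, 257 and 264 CPM in DMSO libraries (-0.77, SE 0.04, adjusted p = 4.48e-29). It was the sole eIF3 gene past 1.5-fold with TMM. EIF3K, a subunit outside the conserved core, had 156, 146 and 149 CPM with mebendazole and 203, 203 and 210 CPM with DMSO (-0.45, SE 0.04, adjusted p = 2.22e-17). Next came EIF3D, a subunit that can itself bind the mRNA cap, at -0.30, then EIF3G at -0.28, EIF3E at -0.21, EIF3B at -0.16, EIF3A at -0.14 and EIF3F at -0.08. EIF3A and EIF3B, which encode core scaffold subunits, thus fell by little, and DESeq2 did not call EIF3A (adjusted p = 0.0512). EIF3F lost its call in DESeq2 (adjusted p = 0.326), without pair 1 (adjusted p = 0.136) and without pair 2 (adjusted p = 0.374). EIF3E, the eIF3 gene with the most reads, had 656, 597 and 658 CPM in mebendazole libraries and 727, 742 and 743 CPM in DMSO libraries. EIF3L had 492, 477 and 488 CPM with mebendazole and 474, 467 and 484 CPM with DMSO. The ranges of EIF3L overlapped, and it had the highest log2 fold change of the group (0.03, adjusted p = 0.331). EIF3H (0.00), EIF3I (-0.01) and EIF3J (-0.01) were not called either. With library totals all 12 were called lower, but that scaling put the median of all genes tested at -0.27. Of all called genes 36.4% were then higher. Within the eIF3 reads, EIF3M made up 4.21%, 4.17% and 4.30% in mebendazole libraries and 6.19%, 6.57% and 6.57% in DMSO libraries (exact permutation p = 0.1, the smallest possible). This share was chosen after the data were seen, so its p adds no support. Summed over 13 eIF3 rows, EIF3CL left out, the level was 3533 ± 80.6 CPM with mebendazole and 3952 ± 59.7 CPM with DMSO (SD, n = 3 each). EIF3C and its near-identical copy EIF3CL were listed at 0 or 1 read in every library and give no information on eIF3c.

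**Figure D3:**
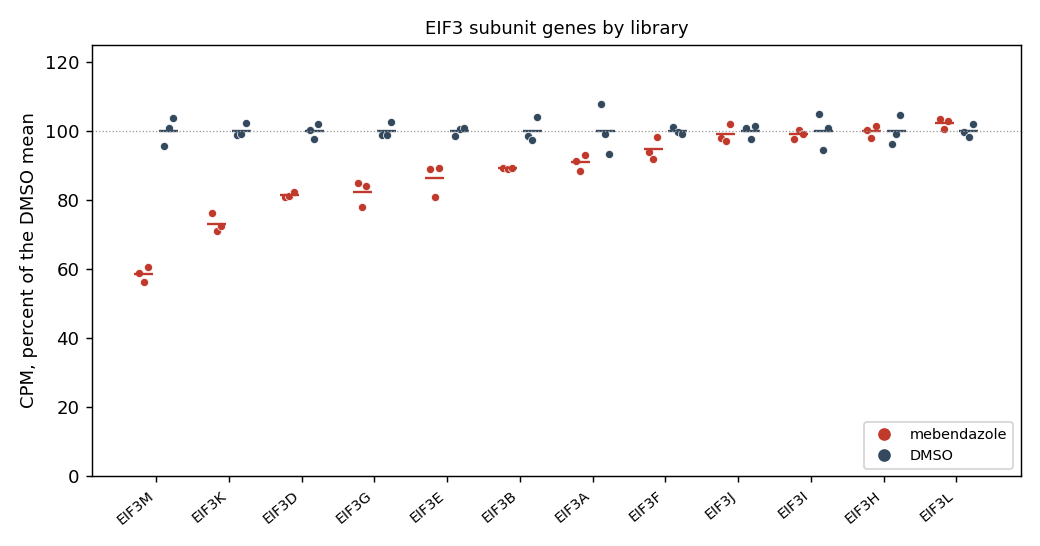
CPM of the 12 tested EIF3 genes in each library as a percentage of that gene's DMSO mean, 1 point per library and a bar at each mean, mebendazole left of DMSO. Genes are ordered by fold change, from EIF3M, whose 3 mebendazole points stand well below its DMSO points, to EIF3L, where both groups lie together.

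The group of EIF4E and its binders held 2 of the 3 largest falls of the family, both of them genes of 4E-binding proteins. Of its 8 members 7 were tested, with 2 called higher, 3 lower and 2 not called. EIF4EBP1, a 4E-binding protein, was read at 14.8, 11.9 and 14.5 CPM in mebendazole libraries and at 52.0, 47.9 and 47.4 CPM in DMSO libraries. No mebendazole value reached 15 CPM and no DMSO value was under 47. The log2 fold change was -1.84 (SE 0.07, adjusted p = 3.42e-34), 3.58-fold lower than with DMSO. EIF4EBP2, its relative, had 146, 146 and 140 CPM with mebendazole and 138, 136 and 139 CPM with DMSO, and was not called (0.07, adjusted p = 0.107), though it was called higher with the size factors of DESeq2 (0.09, adjusted p = 0.0354) and called lower with library totals (-0.18, adjusted p = 4.92e-05). EIF4EBP3, the third of these inhibitors, was near the limit of detection, with 1, 4 and 5 reads in mebendazole libraries and 20, 20 and 24 reads in DMSO libraries. Its log2 fold change of -2.39 (SE 0.43, adjusted p = 1.2e-06) rests on these few reads, and its exons lie within the readthrough gene ANKHD1-EIF4EBP3, which was not called (0.11). Among the reads of EIF4EBP1 and EIF4EBP2 together, EIF4EBP2 held 90.8%, 92.5% and 90.7% with mebendazole and 72.6%, 74.0% and 74.5% with DMSO. The difference was 17.6 percentage points (exact permutation p = 0.1, the smallest possible).

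EIF4E, the cap-binding protein that these inhibitors hold, rose. It had 71.4, 65.7 and 74.2 CPM in mebendazole libraries and 46.1, 44.3 and 44.9 CPM in DMSO libraries (log2 fold change 0.64, SE 0.05, adjusted p = 4.97e-18). EIF4E2, a relative that represses translation of the mRNAs it binds, had 45.8, 45.6 and 39.0 CPM with mebendazole and 57.1, 55.0 and 56.0 CPM with DMSO (-0.37, SE 0.06, adjusted p = 1.53e-08). The share of EIF4E2 in the reads of both was 39.1%, 41.0% and 34.4% with mebendazole and 55.4%, 55.4% and 55.5% with DMSO (exact permutation p = 0.1). Its spread was wider with mebendazole, where the third library lay lowest. EIF4E3 had 15.1, 13.0 and 15.3 CPM with mebendazole and 13.7, 14.7 and 14.3 CPM with DMSO, and the groups overlapped (0.03, adjusted p = 0.788). EIF4ENIF1, the transporter that carries eIF4E into the nucleus, rose by 0.40 on the log2 scale (adjusted p = 1.94e-09). EIF4E1B, an oocyte relative of eIF4E, was listed at 0 reads in all 6 libraries.

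Of the 3 scaffold genes 1 rose and 2 fell. EIF4G2, a shortened relative also known as DAP5 that lacks the eIF4E-binding part, had 2102, 1995 and 2068 CPM in mebendazole libraries and 1121, 1051 and 1087 CPM in DMSO libraries. No other member had as many reads. It rose 1.89-fold (log2 fold change 0.92, SE 0.03, adjusted p = 1.7e-39). EIF4G1, the main scaffold, had 604, 604 and 600 CPM with mebendazole and 793, 736 and 725 CPM with DMSO, and fell by 0.32 on the log2 scale (SE 0.03, adjusted p = 1.7e-14). EIF4G3 had 201, 208 and 202 CPM with mebendazole and 248, 236 and 231 CPM with DMSO (-0.23, SE 0.04, adjusted p = 3.26e-08). Both fell by similar amounts: the share of EIF4G3 in the reads of the pair was 25.2% ± 0.341 with mebendazole and 24.1% ± 0.240 with DMSO (SD, n = 3 each, exact permutation p = 0.1), a difference of 1.11 points.

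**Figure D4:**
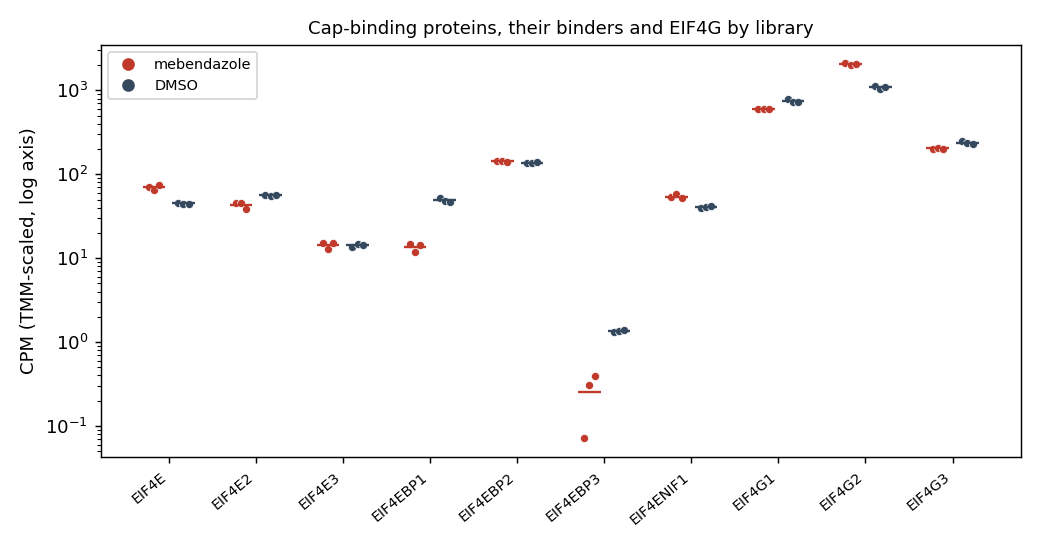
CPM on a log axis of the cap-binding proteins, their binders and the EIF4G scaffolds, 1 point per library and a bar at each mean, mebendazole left of DMSO. EIF4EBP1 and EIF4EBP3 were lower and EIF4E and EIF4G2 higher in all 3 mebendazole libraries, whereas EIF4E3 overlapped between the groups.

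The helicase eIF4A could be followed only in part. EIF4A1, an abundant gene of most cells, was listed at 0 reads in all 6 libraries, which is not a measured level. Its exons overlap those of the readthrough gene SENP3-EIF4A1, which held 2 to 11 reads per library; the part of that overlap was not tested, and no share of EIF4A2 against EIF4A1 could be formed. EIF4A2 had 283, 287 and 288 CPM with mebendazole and 404, 417 and 397 CPM with DMSO (-0.50, SE 0.03, adjusted p = 3.44e-22). EIF4A3, a helicase of the exon junction complex rather than of initiation, had 144, 137 and 146 CPM with mebendazole and 121, 117 and 124 CPM with DMSO (0.24, adjusted p = 1.99e-07, but -0.01 with library totals). Both cofactors of the helicase had small differences. EIF4B, with 332, 310 and 337 CPM in mebendazole libraries and 342, 333 and 340 CPM in DMSO libraries, was not called (-0.05, adjusted p = 0.136), but was called lower with library totals (-0.30, adjusted p = 6.03e-12) and among genes with a mean of 10 CPM or more (-0.09, adjusted p = 0.0162). EIF4H was called at 0.09 (adjusted p = 0.0147), but was called lower with library totals (-0.16, adjusted p = 3.27e-05). Its call was also lost without pair 3 (adjusted p = 0.114), with no filter (adjusted p = 0.0633) and among genes with a mean of 10 CPM or more (adjusted p = 0.129).

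EIF1 and EIF5, factors of start codon choice, rose, while EIF1AX fell; of the 5 EIF1 genes 2 rose, 2 fell and 1 was not called. EIF1, which keeps the scanning ribosome from starting at poor sites, had 776, 736 and 758 CPM in mebendazole libraries and 343, 334 and 348 CPM in DMSO libraries. Each mebendazole value was more than 2 times each DMSO value, and the log2 fold change was 1.15 (SE 0.03, adjusted p = 1.27e-42). EIF1B, a close copy of EIF1, had 36.5, 32.5 and 35.1 CPM with mebendazole and 25.6, 26.2 and 26.8 CPM with DMSO (0.40, SE 0.07, adjusted p = 9.47e-08). EIF1 rose more: the share of EIF1B in the reads of the pair was 4.49%, 4.22% and 4.43% with mebendazole and 6.95%, 7.29% and 7.15% with DMSO (exact permutation p = 0.1). EIF5, the GTPase activator of eIF2, had 932, 900 and 930 CPM with mebendazole and 561, 563 and 570 CPM with DMSO (0.70, SE 0.03, adjusted p = 1.26e-31). EIF1AX, which encodes eIF1A, went the other way, with 71.5, 70.0 and 72.6 CPM in mebendazole libraries and 91.4, 92.9 and 94.6 CPM in DMSO libraries (-0.38, SE 0.05, adjusted p = 2.14e-11). Its close relative EIF1AY had a log2 fold change of -0.59 (SE 0.07), and reads of these 2 may be split between them. EIF1AD, a gene named for an eIF1A-like domain, had 46.6, 47.6 and 47.4 CPM with mebendazole and 44.6, 45.6 and 47.5 CPM with DMSO and was not called (adjusted p = 0.502).

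EIF5B, the GTPase that joins the ribosomal subunits, had 180, 171 and 173 CPM with mebendazole and 244, 253 and 255 CPM with DMSO, and fell by 0.52 on the log2 scale (SE 0.04, adjusted p = 7.82e-21). EIF6, which keeps free large subunits apart from small ones, had 138, 139 and 144 CPM in mebendazole libraries and 106, 101 and 114 CPM in DMSO libraries (0.39, SE 0.04, adjusted p = 3.17e-13). EIF5A, the hypusine-bearing factor that helps peptide bonds form and acts mainly in elongation, had 157, 155 and 154 CPM with mebendazole and 218, 209 and 223 CPM with DMSO (-0.48, SE 0.04, adjusted p = 6.31e-19). EIF5A2, its second form, had 23.3, 26.6 and 25.4 CPM with mebendazole and 17.7, 19.0 and 16.7 CPM with DMSO, and rose by 0.50 on the log2 scale (SE 0.08, adjusted p = 2.2e-08). EIF5AL1, a copy of EIF5A whose reads may belong to it, was not called (-0.24, adjusted p = 0.0971), but was called lower without pair 2 (-0.38, adjusted p = 0.0302). The 3 genes EIF4G2, EIF5 and EIF1 together held 0.347%, 0.337% and 0.343% of all reads in mebendazole libraries and 0.219%, 0.214% and 0.217% in DMSO libraries. For the 55 members as a whole these shares were 1.04%, 1.03% and 1.04% with mebendazole and 1.15%, 1.15% and 1.16% with DMSO, while their summed CPM after TMM scaling was 11270 ± 190 with mebendazole and 10610 ± 112 with DMSO (SD, n = 3 each). The direction of the summed level therefore turns with the scaling.

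**Figure D5:**
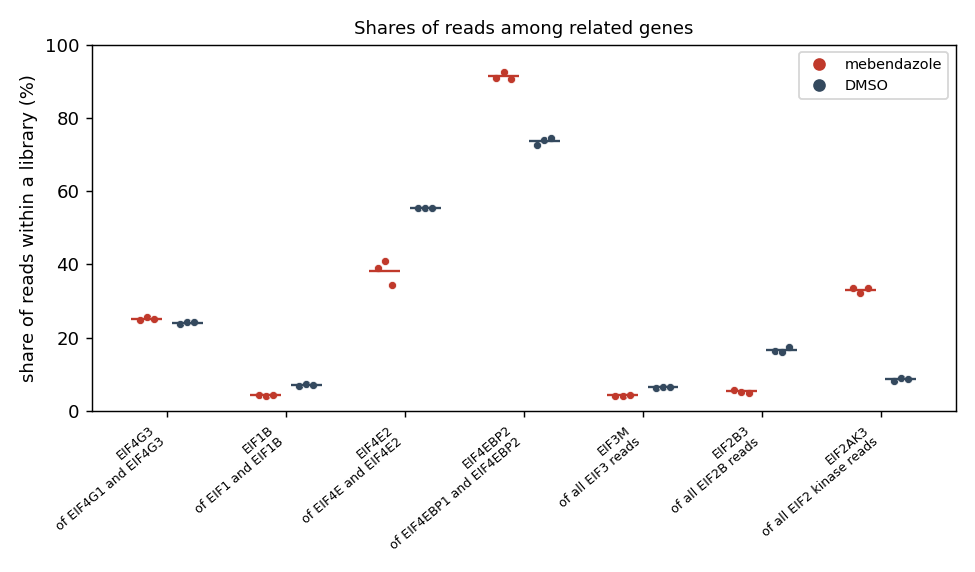
Share of reads, in percent, that 1 gene holds among related genes within each library, 1 point per library and a bar at each mean, mebendazole left of DMSO. EIF4EBP2 rose to 91.3% of the EIF4EBP1 and EIF4EBP2 reads, against 73.7% with DMSO, and EIF2AK3 to 33.1% of the EIF2 kinase reads, against 8.67% with DMSO, while EIF4G3 lay at 25.2% with mebendazole and 24.1% with DMSO.

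Genes around the initiation factors were read from 6 lists. Of 19 other helpers of initiation, 6 were called higher and 12 lower (median -0.29 on the log2 scale; 5 higher and 13 lower with library totals). PPP1R15A, which directs the phosphatase that removes the phosphate from eIF2, rose to 269 ± 5.38 CPM with mebendazole, against 47.6 ± 0.439 CPM with DMSO (2.50, adjusted p = 5.54e-55). IMPACT, an inhibitor of GCN2, fell to 21.1 ± 1.11 CPM, against 82.6 ± 3.76 CPM with DMSO (-1.97, adjusted p = 2.51e-40). DDX3X, an RNA helicase, rose 2.26-fold. Of 19 genes downstream of eIF2 phosphorylation, 12 rose and 6 fell (median 1.00; 10 higher and 8 lower with library totals), led by VEGFA at 3.44, SLC7A11 at 2.96 and ATF3 at 2.75. ATF4, the factor whose translation eIF2 phosphorylation favours, was 575 ± 4.99 CPM with mebendazole and 287 ± 10.3 CPM with DMSO. DDIT3, counted among the 12 rises at 0.12, overlapped between the groups and was not called by DESeq2 (adjusted p = 0.15). With library totals DDIT3 was called lower (-0.12, adjusted p = 0.0382). ATF4 and DDIT3 are named here after their values were seen. The genes called lower, also named after their values were seen, were PSAT1 (-2.49), NUPR1 (-2.01), PHGDH (-1.52), ASNS (-0.90), SHMT2 (-0.34) and CEBPG (-0.14). DESeq2 did not call CEBPG (adjusted p = 0.0798). PSAT1, PHGDH and SHMT2 encode enzymes of serine and glycine synthesis, and ASNS encodes asparagine synthetase. Several genes of that list answer to other signals too.

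In the mTORC1 pathway, which controls the 4E-binding proteins, 12 of 23 genes rose and 9 fell (median 0.11; 7 higher and 13 lower with library totals). DDIT4 and SESN2, inhibitors of mTORC1, rose by 2.75 and 1.56 on the log2 scale, and AKT1S1, a subunit that restrains the complex, by 1.19. Other inhibitors fell: DEPTOR, an inhibitory subunit under the level set for naming, was 0.83 ± 0.281 CPM with mebendazole and 13.7 ± 0.441 CPM with DMSO (-4.04, adjusted p = 7.67e-31), the largest change of the list. SESN1 was at -0.26 and TSC2 at -0.12, both called lower, though DESeq2 did not call TSC2 (adjusted p = 0.28). Further inhibitors were called higher: GATSL3, the CASTOR1 gene, at 1.64 and also under that level, TSC1 at 0.32 and SESN3 at 0.15. With library totals SESN3 was called lower (-0.09, adjusted p = 0.025) and TSC1 was not called (0.07, adjusted p = 0.184). Genes of the list that are not inhibitors went both ways as well. RPTOR (0.89) and RHEB (0.75) were among those called higher, and MLST8 (-0.64), LAMTOR1 (-0.66) and LAMTOR2 (-0.68) among those called lower. DEPTOR, SESN1, TSC2, GATSL3, TSC1, SESN3, RPTOR, RHEB, MLST8, LAMTOR1 and LAMTOR2 are named after their values were seen. Genes of the elongation list, not all of which are elongation factors, went both ways. Of its 12 genes 6 were higher and 6 lower (median -0.06, and 4 higher and 7 lower with library totals). EEF1A2 was at 1.09, EEF2K, the kinase that inactivates eEF2, at -1.18 and the mitochondrial factor GFM2 at -0.86. For release and recycling factors the count was 3 rises and 5 falls among 9 genes (median -0.24; 1 higher and 7 lower with library totals). ETF1, which reads stop codons, rose by 0.79, while ABCE1, which splits ribosomes after termination, fell by 1.12 and C12orf65 by 0.54 on the log2 scale. Of 10 tested poly(A)-binding proteins and partners, 6 rose and 2 fell (median 0.27; 3 higher and 4 lower with library totals). PAIP2, an inhibitor of the poly(A)-binding protein, rose by 0.74 and PABPC4 by 0.45, and LARP1, a binder of mRNAs that encode ribosomal proteins, fell by 0.60. Over the 6 lists, 42 genes rose and 40 fell. SESN2, DDIT4 and PPP1R15A rose, are shared between lists and are counted once in that total, so the rises of those lists are not independent. These are counts and not shares. Of all tested genes, 40.6% were called higher and 41.7% lower, and no test of a list was made.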

How the data were processed

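THP-1 RNA had been sequenced in 3 mebendazole and 3 DMSO libraries from total RNA; the labels' protocols name the TruSeq v2 chemistry, a kit that does not mark strand. The authors deposited raw counts of reads for each gene symbol in 6 columns, and 0 columns belonged to no sample. The submitters' processing notes list STAR, bedtools, HTSeq, DESeq2 and the build hg19 and give neither version nor purpose. Annotation and strand setting: not given in the sources used here.

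Counts were fitted in R 4.3.3 with edgeR 4.0.16: filterByExpr on the group (13591 genes kept), TMM scaling, the labels' sample pair as a term (the series' design states 3 pairs), glmQLFit and glmQLFTest, two-sided, Benjamini-Hochberg adjustment over all genes tested. Each gene had 2 residual degrees of freedom and the prior counted as 61, so p-values rest mostly on the pooled spread. SE is the log2 fold change divided by the square root of F. The fit was also run on simulated data, but the outcome is not reported here and lends no weight to these results. Shares of reads were compared by exact permutation tests (scipy 1.17.1), two-sided, which with 3 against 3 libraries cannot go below 0.1. The 3 shares within a group, of EIF2AK3, EIF2B3 and EIF3M, were chosen after the data were seen. No replicates of a group agreed within sampling noise (chi-square per degree of freedom at least 1.44).

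Alternatives were DESeq2 1.42.0, its size factors, library totals, other filters, no pair term, each pair left out, and a test against 1.5-fold. Members are all EIF rows; values in every sample are given for kinases, eIF2 subunits, 4E-binding proteins and, per group, the largest rise, largest fall and most reads; values of other members were added after they were seen. Outside the family, the 3 called genes of each list with the largest change and a mean of 10 CPM or more are named, and further genes where the text says so. The members, lists and motifs were chosen with earlier results of these data known. Exon overlaps came from GENCODE 29 by symbol, and promoters from RefSeq on GRCh38.p14; the counts were made on hg19, of which no coordinates are printed. The value of 1 marker gene is not reported here.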

Additional observations from a re-analysis of the deposited data

How the results depend on the processing

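Of the 41 called members, 35 kept sign and call in every alternative other than the test against 1.5-fold. EIF4EBP3, among the 35, was not in the fit of genes with a mean of 10 CPM or more. The 18 genes of the other lists that were named for the largest changes did so too. They were picked for the size of their change, so this says little about their lists. Genes named after their values were seen are not among the 18. Of these, DESeq2 did not call TSC2 (adjusted p = 0.28), DDIT3 (adjusted p = 0.15) or CEBPG (adjusted p = 0.0798). The test against 1.5-fold, which asks for a larger change, called 4 members higher and 5 lower. No share over all tested genes is given for these counts or for the library-total counts that follow. They therefore do not set these genes apart from others. With library totals, 3 members were called and at least 1.5-fold higher and 16 lower, and 27 genes of the 6 lists rose in place of 42. That scaling also reversed EIF1AD (-0.20), EIF2B2 (-0.094), EIF3H (-0.24), EIF3L (-0.21), EIF4A3 (-0.007), EIF4E3 (-0.22), EIF4EBP2 (-0.18) and EIF4H (-0.16), through its shift of -0.24 in the median gene. The other reversals were of uncalled genes near 0, and the cause was not tested: EIF3H was -0.016 with no filter, -0.034 above 10 CPM and -0.001 with no replicate block; EIF3I and EIF3J were 0.008 with DESeq2 size factors and in DESeq2; above 10 CPM, EIF3L was -0.001 and EIF4E3 -0.007. Leaving out each pair in turn gave -0.030 to 0.025 for EIF3H, -0.046 to 0.032 for EIF3I, -0.025 to 0.002 for EIF3J and -0.028 to 0.136 for EIF4E3, with 11 to 13 members higher, 27 lower, and 5 higher and 5 to 6 lower at 1.5-fold; the share difference of EIF1B was -2.90 to -2.59 points. With no replicate block, 12 members rose and 27 fell; EIF2B2 (adjusted p = 0.054) and EIF3F (adjusted p = 0.0655) lost their calls. The labels number the pairs, but deviations of same-numbered libraries correlated at only -0.001, 0.061 and 0.016, and 3 of 6 samples correlated best with their own number. Differences of shares within pairs gave a sign-flip p of 0.25, the smallest that 3 pairs allow. Depth limits EIF4EBP3; why EIF4A1, EIF3C and EIF3CL hold 0 or 1 read was not tested, and no pseudocount alternative applies to counts. A share of EIF4A2 could not be computed.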
